A study of Mus musculus with 8 samples.

Results

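Histone genes were read from 62 of the 45037 non-control probe sets on the array. A probe set is a group of short probes against the same transcripts. Members were all probe sets with a gene symbol of the canonical clustered histones (Hist1h to Hist4h, or the newer H2ac, H2bc, H3c and H4c names) or of the variants (H2af, H3f3 or H1f). The platform annotation already writes most variants under newer symbols, such as H2az1 for H2afz. For that reason 42 members matched by the platform symbol and the other 20 through the older name recorded in the mouse RefSeq gene table. Replication-dependent genes account for 35 of the probe sets and variants for 27. A single gene is named by 35 of the members, while 27 name several, up to 13, mostly because histone genes are near-identical copies. Some also name a gene outside the histone list, such as Trim17 beside H2aw. In all, 70 histone genes are named, and probe sets with overlapping names share transcripts and are not independent readings.

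The RNA came from NIH3T3, an established mouse embryonic fibroblast line, transduced with mVenus-p27K- (a fluorescent fusion of a p27 mutant that does not bind CDKs) and mCherry-hCdt1(30/120) (a fragment of human Cdt1 that is present in G0 and G1). All cells were serum starved and then given 10% serum for 5 h. The G1 group, 4 arrays, is the mVenus-negative and mCherry-positive sort, and the G0 group, 4 arrays, is the mVenus-positive and mCherry-positive sort of the same reporter line. Both groups therefore carry both reporters and the same starvation and serum treatment, and differ by the p27 reporter gate. The labels do not say whether replicates were separate cultures, and the p-values therefore reflect the spread among these 8 samples alone, some of which may be technical.

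Values are on a log2 scale, with the median of the 8 arrays set to 0 at every probe set, so they show differences between arrays and not levels. The fibroblast identity could not be checked by marker levels for the same reason. Array medians over all probe sets lay between −0.07 and 0.09. The labels give revision 3 of the labelling kit protocol for replicate 4 of each group and revision 8 for replicates 1 to 3. This difference was taken as a batch, called the labelled batch below. The poly-A spike-in transcripts were instead missing on G1 replicate 4 and G0 replicate 3, with medians of −6.12 and −7.12 over 12 probe sets, against −0.16 to 0.64 on the other 6 arrays. Results are therefore given with both batch assignments where that changes a call. In sorted bulk RNA, fewer cells of a kind and less RNA per cell cannot be told apart.

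Histones package DNA into nucleosomes. H2A, H2B, H3 and H4 form the core, and H1 binds the linker between cores. The replication-dependent genes lie in clusters, are transcribed mainly in S phase, and yield mRNAs that end in a stem-loop in place of a poly(A) tail. Variant histones such as H2A.Z, H3.3 and macroH2A are encoded by single genes with ordinary polyadenylated mRNAs and are made throughout the cell cycle and in resting cells. Some clustered genes, H1f2 among them, are known to give polyadenylated mRNAs as well, chiefly in cells that have stopped dividing. The labelling kit primes from poly(A), so the arrays mostly read polyadenylated transcripts, and how far this shaped the values below was not tested.

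Promoters of some genes named by the probe sets described below are shown first. H2ac8 and H2bc8 face each other across a shared stretch. A probe set that names H2bc8 was lower in G1 and a probe set that names H2ac8 was higher. Other probe sets that name H2bc8 had smaller differences, given below. The first sequence is the whole stretch between the starts of H2ac8 and H2bc8. The others are the 150 bases just before the start of H1f2, H2ac18, H2aw, H2ac4 and the variant gene H2az1. All are from RefSeq (GRCm38.p6), 5′ to 3′ on the plus strand, at chr13:23571221-23571399, chr13:23738657-23738806, chr3:96245347-96245496, chr11:58954535-58954684, chr13:23750938-23751087 and chr3:137864337-137864486. Capitals mark the CCAAT box (CCAAT or its reverse ATTGG), the TATA box (TATAAA or TTTATA) and the octamer (ATTTGCAT or ATGCAAAT), none of which overlap in the lines printed.
H2ac8 and H2bc8: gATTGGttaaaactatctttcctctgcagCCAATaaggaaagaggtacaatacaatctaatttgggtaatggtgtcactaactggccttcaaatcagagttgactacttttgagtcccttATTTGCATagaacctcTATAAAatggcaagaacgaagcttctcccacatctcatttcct
H1f2: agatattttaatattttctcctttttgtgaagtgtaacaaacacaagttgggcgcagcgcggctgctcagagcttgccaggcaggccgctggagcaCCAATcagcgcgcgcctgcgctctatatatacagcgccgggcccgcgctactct
H2ac18: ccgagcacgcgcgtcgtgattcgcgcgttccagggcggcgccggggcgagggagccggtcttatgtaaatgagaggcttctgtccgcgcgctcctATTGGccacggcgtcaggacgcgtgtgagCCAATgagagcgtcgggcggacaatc
H2aw: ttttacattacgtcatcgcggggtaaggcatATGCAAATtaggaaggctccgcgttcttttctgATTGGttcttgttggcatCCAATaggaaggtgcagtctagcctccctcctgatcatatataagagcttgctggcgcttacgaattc
H2ac4: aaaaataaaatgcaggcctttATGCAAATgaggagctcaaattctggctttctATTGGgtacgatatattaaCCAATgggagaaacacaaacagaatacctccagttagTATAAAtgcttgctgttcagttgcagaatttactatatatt
H2az1: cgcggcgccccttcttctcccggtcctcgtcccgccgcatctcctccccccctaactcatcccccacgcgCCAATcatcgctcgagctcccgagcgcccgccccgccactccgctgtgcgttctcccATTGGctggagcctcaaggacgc

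The CCAAT box lay within 250 bases before the start in 40 of 51 promoters of replication-dependent genes on either strand (78.4%). It did so in 6 of 12 variant promoters and in 33.85% of all 32851 promoters in the RefSeq table. These promoters cover 50 of the 56 replication-dependent and 12 of the 14 variant genes named. Facing genes share stretches that were counted for each gene. The TATA box was present in 20 replication-dependent promoters (39.2%) and 1 variant promoter, against 12.37% of all, and the octamer in 9 (17.6%) and 1, against 1.6% of all. The searched E2F-type words TTTCCCGC and TTTGGCGC were in 1 and 0 replication-dependent promoters, and in 0.89% and 0.42% of all. Such a match describes letters in a window and is not a bound site.

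No histone probe set passed the adjusted threshold of 0.05 in the limma fit with the labelled batch. Over all probe sets, 0.400% passed (168 probe sets or 0.373% higher and 12 or 0.0266% lower in G1). At so small a share, 0 calls among 62 members does not set histones apart. At an unadjusted p under 0.05, replication-dependent histones were lower in G1 in 11 of 35 probe sets and higher in 4, against a background of 3.59% lower and 3.71% higher. Variant histones were higher in 5 of 27 and lower in 0, and all 5 read the H2A.Z genes H2az1 and H2az2. The median log2 difference, G1 minus G0, was −0.24 for the replication-dependent probe sets (13 positive and 22 negative), 0.21 for the variants (18 positive and 9 negative) and −0.06 for all probe sets. With the spike-in batch as covariate, 1 histone probe set passed, a multi-gene H2A probe set that rose in G1, where 0.788% of all probe sets passed, 0.702% as higher and 0.0866% as lower. In that fit the unadjusted calls were 12 lower and 4 higher among replication-dependent and 0 lower and 8 higher among variant probe sets, against 6.11% lower and 5.15% higher over all. The lowest adjusted p in the labelled-batch fit was 0.115 among replication-dependent and 0.212 among variant probe sets.

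**Figure D1:**
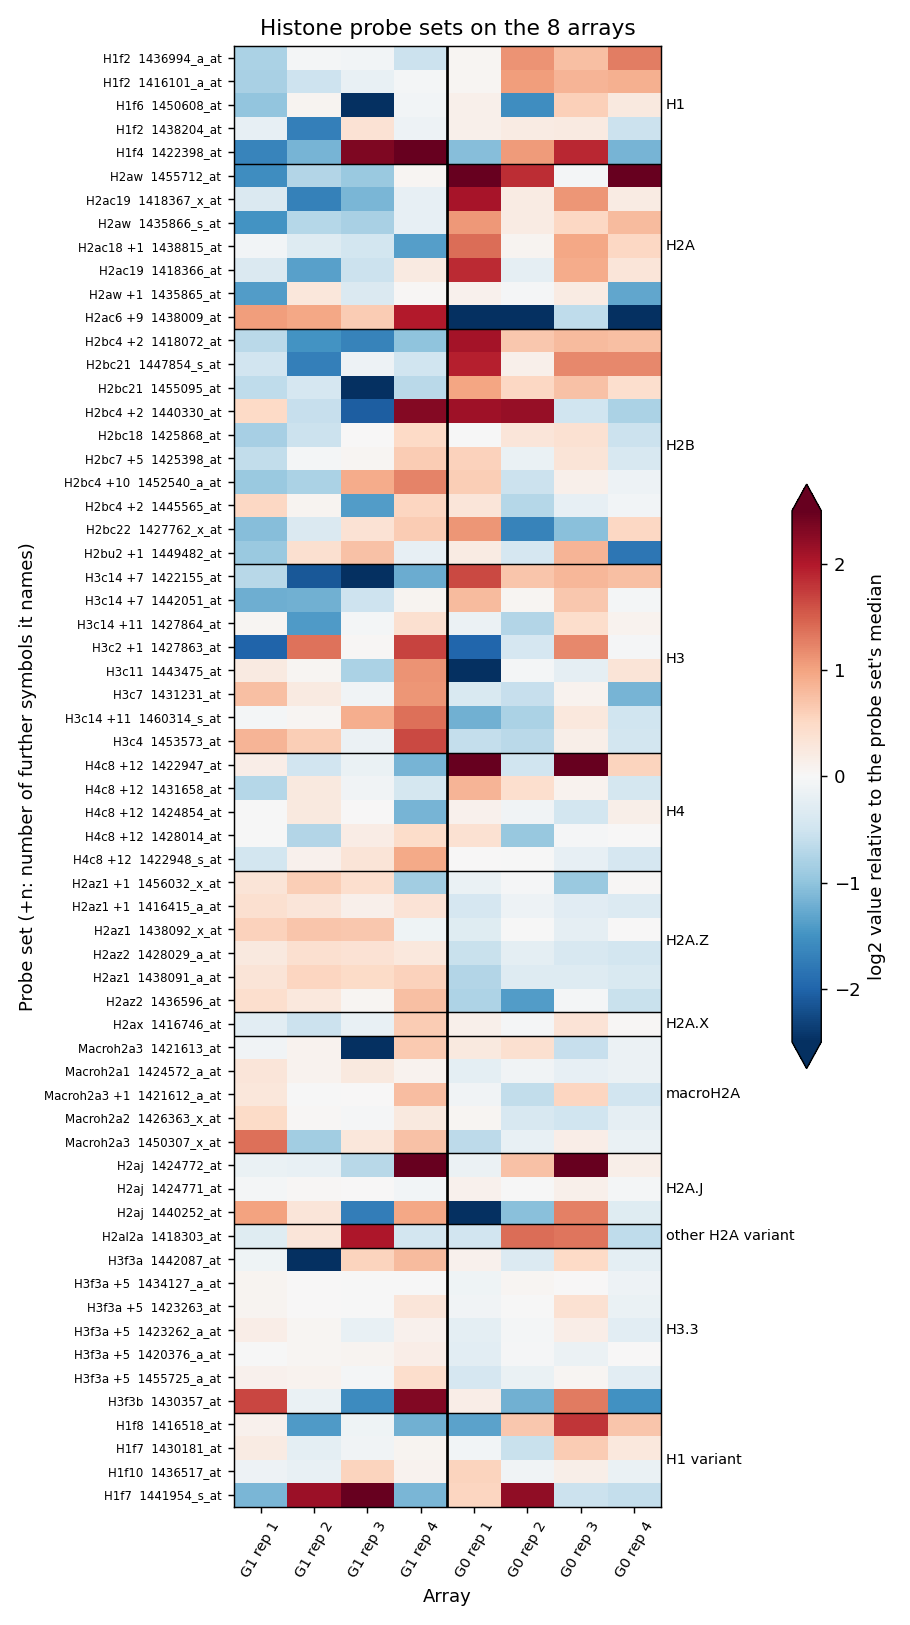
All 62 histone probe sets (rows, grouped by family) on the 4 G1 and 4 G0 arrays (columns); colour is the log2 value relative to the probe set's median, cut off at the ends of the colour bar. H2A, H2B and H1f2 probe sets that were lower on the G1 arrays lie close to others that were not, and most H2A.Z rows are above 0 in G1 and below it in G0.

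Linker histone H1 was represented by 5 replication-dependent probe sets, and the 2 whose groups did not overlap both read H1f2, the H1.2 gene. For 1416101_a_at the G1 arrays read −0.82, −0.53, −0.19 and −0.05 and the G0 arrays 0.05, 1.05, 0.84 and 0.89. Every G1 array lay below every G0 array, a log2 difference of −1.11 (SE 0.29, 2.15-fold lower in G1, adjusted p = 0.341). The companion probe set 1436994_a_at gave −0.80, −0.05, −0.06 and −0.53 in G1 and 0.05, 1.12, 0.75 and 1.28 in G0, a difference of −1.16 (SE 0.34, adjusted p = 0.447). The third H1f2 probe set, 1438204_at, read −0.20, −1.70, 0.36 and −0.13 in G1 against 0.13, 0.20, 0.23 and −0.54 in G0, and its groups overlapped (−0.42, adjusted p = 0.936). H1f4, the H1.4 gene, had a difference of 0.55 with a 95% interval of −2.58 to 3.68, and the testis gene H1f6 one of −0.89 (adjusted p = 0.914).

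Groups did not overlap in 9 replication-dependent probe sets lower in G1 and 1 higher, where 2.90% of all probe sets were separated in the lower and 3.16% in the higher direction. These 9 read H1f2, the H2ac18 and H2ac19 pair, H2aw, the H2bc4, H2bc6 and H2bc8 trio, H2bc21 and a set of 8 H3 genes. Several of them read the same gene, so they are not 9 independent readings.

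Core histone H2A gave the widest spread of the families, from −3.06 to 3.57 over 7 probe sets. H2ac19 and H2ac18 encode the same H2A protein from a cluster on chromosome 3. Their joint probe set 1438815_at read −0.07, −0.33, −0.45 and −1.38 in G1 and 1.40, 0.07, 0.96 and 0.52 in G0, without overlap (log2 difference −1.29, SE 0.34, adjusted p = 0.342). For H2ac19 alone, 1418367_x_at read −0.35, −1.70, −1.15 and −0.20 in G1, against 2.07, 0.20, 1.11 and 0.21 in G0, also without overlap (−1.75, SE 0.54, adjusted p = 0.475). The other H2ac19 probe set, 1418366_at, read −0.37, −1.35, −0.54 and 0.23 in G1 and 1.86, −0.23, 0.93 and 0.30 in G0, and there the groups overlapped (−1.22, adjusted p = 0.689). G0 replicate 1 was the highest array in all 3.

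H2aw, formerly Hist3h2a, is an H2A gene of the small cluster on chromosome 11. Its probe set 1435866_s_at read −1.49, −0.71, −0.82 and −0.21 in G1 and 1.08, 0.21, 0.51 and 0.79 in G0. All G1 arrays were below all G0 arrays (log2 difference −1.45, SE 0.31, adjusted p = 0.203). A second probe set, 1455712_at, had the most negative difference of any histone probe set, −3.06 (SE 1.23, adjusted p = 0.662). There the G1 arrays read −1.56, −0.74, −0.93 and 0.06, against 3.61, 1.85, −0.06 and 3.69 in G0, so G0 replicate 3 fell within the G1 range. Between the arrays without spike-ins, G1 replicate 4 and G0 replicate 3, this difference was 0.11. Probe set 1435865_at, which names H2aw and Trim17, read −1.40, 0.29, −0.36 and 0.04 in G1 and 0.10, −0.04, 0.20 and −1.29 in G0. Its groups overlapped (−0.10, adjusted p = 0.990), so H2aw was not lower in G1 at every probe set that names it.

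One H2A probe set differed the other way. Probe set 1438009_at names 10 H2A genes of the large chromosome 13 cluster, H2ac4 and H2ac8 among them, which code for canonical H2A. It read 1.05, 0.96, 0.64 and 1.98 in G1 and −3.59, −2.69, −0.64 and −2.74 in G0. G0 replicate 3 was the closest G0 array to the G1 group, and the groups did not overlap. The log2 difference was 3.57 (95% interval 1.67 to 5.47, 11.9-fold higher in G1), with an adjusted p of 0.245 in the limma fit with the labelled batch and 0.0413 with the spike-in batch. Among the 6 arrays with spike-ins the difference was 3.89.

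Core histone H2B contributed 10 probe sets, 4 with a positive and 6 with a negative difference. The lowest adjusted p of any histone probe set belonged to 1418072_at, which names H2bc8, H2bc6 and H2bc4, canonical H2B genes of chromosome 13. Its G1 arrays read −0.66, −1.49, −1.67 and −1.002, and its G0 arrays 2.08, 0.66, 0.79 and 0.75. The groups were far apart, with a log2 difference of −2.28 (SE 0.41, 4.85-fold lower in G1, adjusted p = 0.115). Among the 6 arrays with spike-ins it was −2.44. H2bc8 faces H2ac8 across the 179 bases printed above, and H2ac8 is one of the genes named by the probe set that was higher in G1. Each of these probe sets also reads other genes, so their readings cannot be given to the facing pair alone.

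H2bc21, an H2B gene of the chromosome 3 cluster, was lower in G1 without overlap at both of its probe sets. The first, 1447854_s_at, read −0.48, −1.71, −0.12 and −0.49 in G1 and 1.94, 0.12, 1.19 and 1.20 in G0 (log2 difference −1.81, SE 0.49, adjusted p = 0.381). The second, 1455095_at, read −0.63, −0.42, −2.64 and −0.67 in G1 and 0.98, 0.51, 0.73 and 0.42 in G0 (−1.75, SE 0.54, adjusted p = 0.470). A single array, G1 replicate 3, was far below the rest at the second probe set. H2B probe sets with positive differences were small ones, led by 1449482_at (H2bu1-ps and H2bu2, formerly Hist3h2ba) at 0.30 and H2bc22 at 0.17. The 2 other probe sets of the H2bc8, H2bc6 and H2bc4 trio had differences of −0.71 and 0.10, with adjusted p of 0.960 and 0.989.

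**Figure D2:**
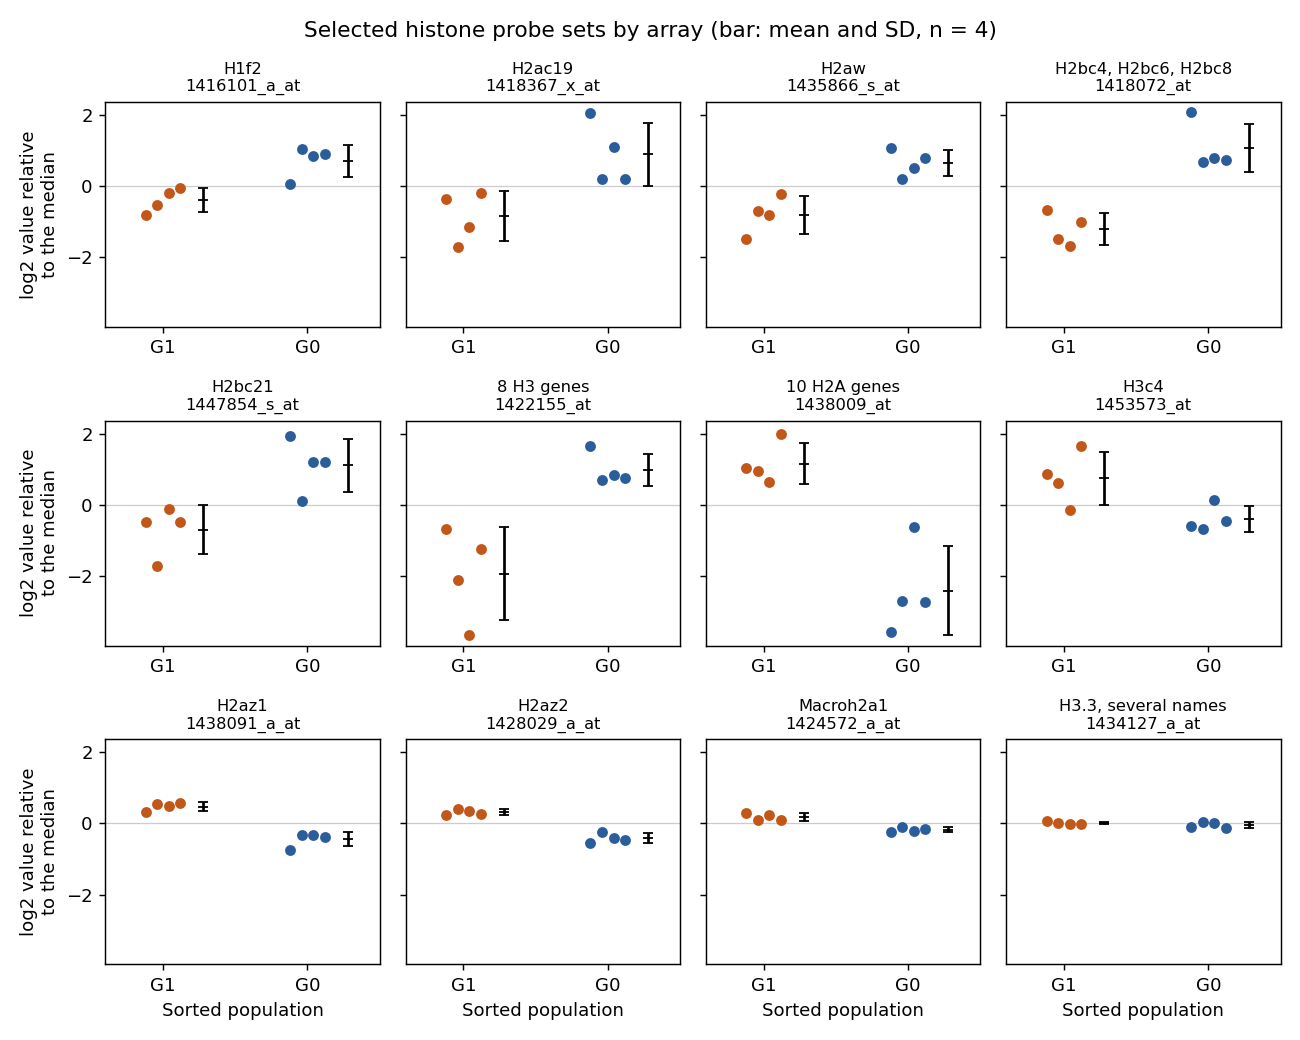
Log2 values relative to each probe set's median on the 4 G1 arrays (left in each panel) and 4 G0 arrays (right), for selected probe sets; each point is an array and each bar a group mean with its SD. The H1f2, H2bc and 8-gene H3 probe sets shown lie lower in G1, while the 10-gene H2A probe set and H2az1 and H2az2 lie higher. Panels show the probe set of lowest unadjusted p for a gene (limma, labelled batch). The 8-gene H3 and 10-gene H2A panels were also picked by direction, and the H3.3 panel by its low spread. Some other probe sets of H1f2, H2ac19, H2aw and the H2bc4, H2bc6 and H2bc8 trio overlapped between the groups.

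Core histone H3 gave opposite differences from overlapping sets of names. Probe set 1422155_at, which names 8 H3 genes on chromosomes 3 and 13, read −0.69, −2.13, −3.67 and −1.25 in G1 and 1.64, 0.69, 0.83 and 0.75 in G0. No G1 array reached the G0 range (log2 difference −2.91, SE 0.72, 7.53-fold lower in G1, adjusted p = 0.304). The same 8 genes are named by 1442051_at, which read −1.23, −1.20, −0.53 and 0.07 in G1 and 0.79, 0.06, 0.67 and −0.06 in G0, with overlap (−1.08, adjusted p = 0.619). By contrast, 1460314_s_at, whose 12 names include those 8, read −0.05, 0.05, 0.90 and 1.38 in G1 and −1.21, −0.80, 0.26 and −0.49 in G0 (1.13, SE 0.41, adjusted p = 0.619). Its groups overlapped through G0 replicate 3. The other probe set with the same 12 names, 1427864_at, had a difference of −0.17 (SE 0.45, adjusted p = 0.981), with overlap. The positive difference was therefore not shared by both probe sets with these 12 names. For H3c10 and H3c2, 1427863_at had a difference of 0.58 (SE 0.91, adjusted p = 0.960), also with overlap.

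Single-gene H3 probe sets were on the positive side. H3c4 (1453573_at) read 0.86, 0.61, −0.15 and 1.65 in G1 and −0.60, −0.68, 0.15 and −0.46 in G0, a difference of 1.14 (SE 0.37, adjusted p = 0.531). H3c7 (1431231_at) read 0.75, 0.23, −0.09 and 1.10 in G1 and −0.38, −0.57, 0.09 and −1.16 in G0, a difference of 1.00 (SE 0.38, adjusted p = 0.632). Both overlapped because G1 replicate 3 lay below G0 replicate 3. H3c11 had a difference of 0.90 with a 95% interval of −0.75 to 2.56. H3c4 and H3c7 are also named by the 8-gene probe set that was lower in G1, so the name alone does not fix which transcript each probe set reads.

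Core histone H4 had no probe set of its own for any gene, since each of its 5 probe sets names the same 13 genes. The most negative, 1422947_at, read 0.16, −0.47, −0.16 and −1.16 in G1 and 3.68, −0.49, 3.49 and 0.56 in G0. G0 replicates 1 and 3 were high and G0 replicate 2 was within the G1 range, and the difference of −2.22 had a 95% interval of −5.07 to 0.62. The other 4 ranged from −0.48 to 0.39, and none of the 5 passed an unadjusted p of 0.05.

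By position, the 6 probe sets that name only replication-dependent genes of chromosome 3 all had negative differences, with a median of −1.52 and 4 without overlap. Over all probe sets, 24760 of 45037 differences were negative, 2.90% were separated with G1 lower and 3.16% with G1 higher. The 4 of chromosome 11 had a median of −0.78, with 1 separated as lower in G1. The 16 of chromosome 13 had a median of 0.10 with 9 positive and 7 negative. Of these, 3 were separated as lower and 1 as higher in G1. The H2A and H2B probe sets of chromosome 3 include pairs that read the same gene. The difference between the clusters was not tested. Replication-dependent probe sets that name 1 gene had a median of −0.998 (16 probe sets) and those with several names −0.10 (19 probe sets).

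**Figure D3:**
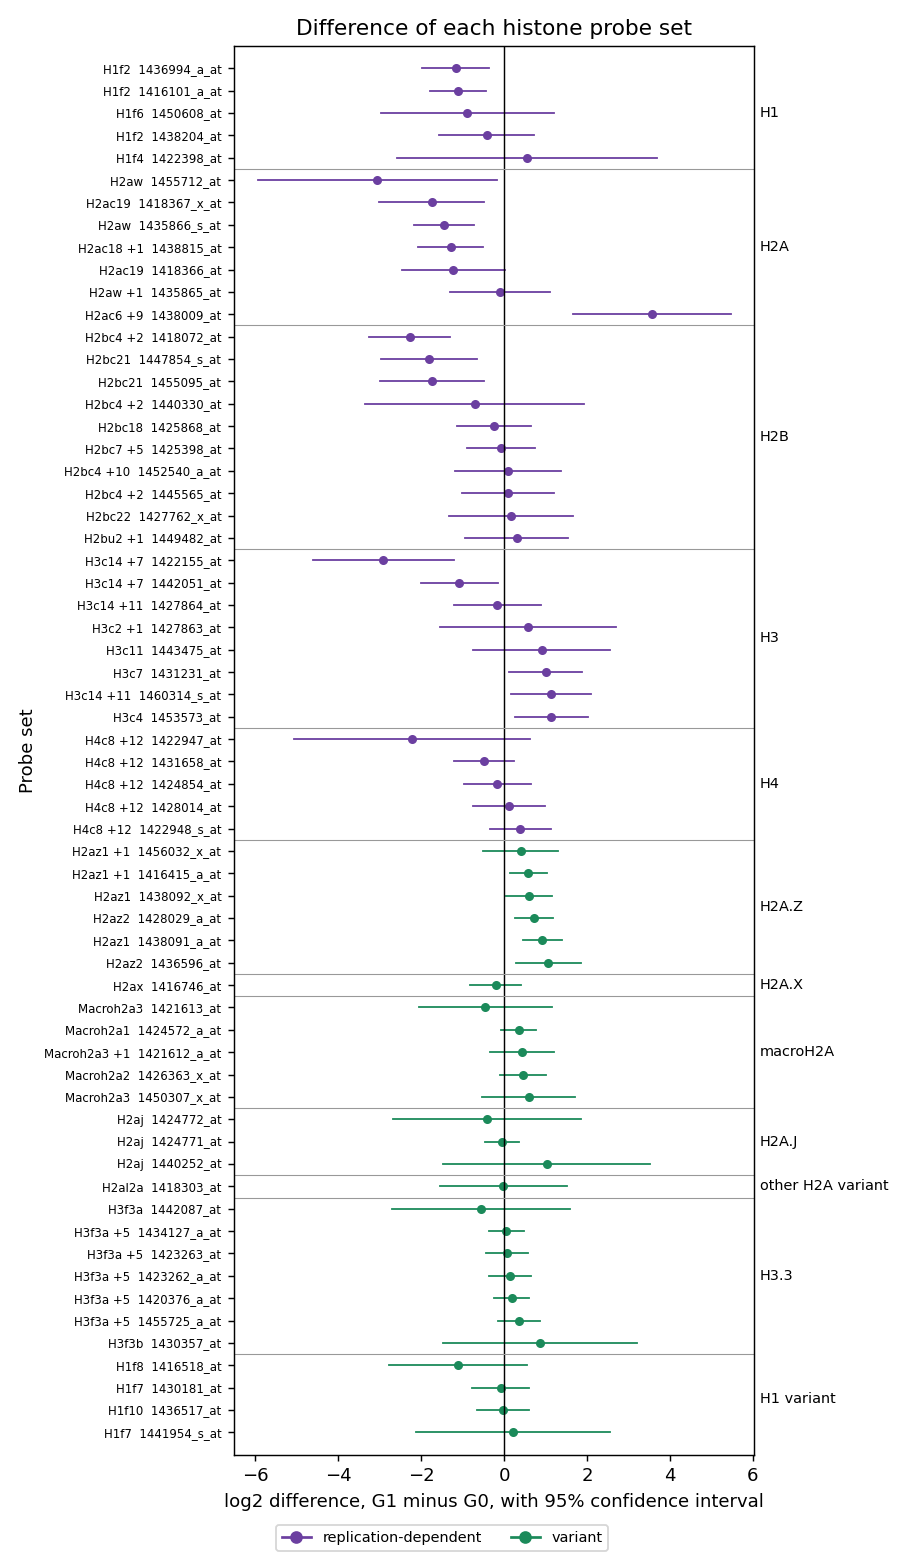
Log2 difference, G1 minus G0, of each of the 62 histone probe sets (rows, by family) with its 95% interval from the limma fit with the labelled batch. Negative differences with intervals off 0 are found in H1f2, H2A, H2B and H3. Positive ones are found at 1 H2A, 3 H3 and 5 H2A.Z probe sets. All 6 H2A.Z differences lie to the right of 0, 1 of them with an interval that spans it.

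Among the variants, H2A.Z was the group with the most uniform difference. H2az1 and H2az2 (formerly H2afz and H2afv) encode the H2A.Z proteins, which replace H2A in nucleosomes around transcription starts. All 6 of their probe sets were higher in G1 by the group mean, with a median of 0.66 on the log2 scale, and 4 did not overlap, where 3.16% of all probe sets were separated in that direction. For H2az1, 1438091_a_at read 0.31, 0.54, 0.49 and 0.57 in G1 and −0.74, −0.32, −0.31 and −0.39 in G0. The groups were clearly apart, with a difference of 0.92 (SE 0.20, 95% interval 0.45 to 1.39, 1.89-fold higher in G1). The adjusted p was 0.212 with the labelled batch and 0.0641 with the spike-in batch (limma), above the threshold in both.

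H2az2 was also above its G0 values in G1 at 1428029_a_at, which read 0.24, 0.41, 0.36 and 0.27 in G1 and −0.55, −0.24, −0.41 and −0.46 in G0 (0.73, SE 0.20, 1.66-fold, adjusted p = 0.369). Its other probe set, 1436596_at, read 0.43, 0.27, 0.06 and 0.74 in G1 and −0.76, −1.39, −0.06 and −0.55 in G0 (1.07, SE 0.34, adjusted p = 0.504). Neither overlapped. The remaining H2az1 probe sets included 1416415_a_at, which also names Gm8203 and read 0.40, 0.31, 0.13 and 0.34 in G1 and −0.42, −0.13, −0.28 and −0.34 in G0 (0.59, SE 0.19, adjusted p = 0.523).

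The last 2 H2az1 probe sets, both of the x_at kind whose probes can also match other transcripts, overlapped through G1 replicate 4. There 1438092_x_at read 0.57, 0.70, 0.68 and −0.10 in G1 and −0.31, −0.01, −0.22 and 0.01 in G0 (0.59, adjusted p = 0.661). At 1456032_x_at the G1 arrays read 0.33, 0.62, 0.42 and −0.88 and the G0 arrays −0.17, −0.03, −0.93 and 0.03 (0.40, adjusted p = 0.908). Its lowest arrays, G1 replicate 4 and G0 replicate 3, are the ones without spike-ins. Within the arrays that had spike-ins the H2A.Z median was 0.75, and between the pair without them 0.65. By labelled batch it was 0.83 in replicates 1 to 3 and 0.70 in replicate 4.

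H2ax, the H2A variant phosphorylated at DNA breaks, has a gene whose mRNA can end either in a stem-loop or in poly(A). Its probe set 1416746_at read −0.26, −0.53, −0.18 and 0.64 in G1 and 0.14, −0.04, 0.34 and 0.04 in G0. G1 replicate 4 was the highest of the 8 arrays and the other G1 arrays the lowest, so the groups overlapped (−0.20, 95% interval −0.82 to 0.41, adjusted p = 0.946).

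MacroH2A carries a large extra domain and is typical of silent chromatin. Macroh2a1 (1424572_a_at) read 0.29, 0.09, 0.25 and 0.09 in G1 and −0.24, −0.09, −0.20 and −0.15 in G0. All G1 arrays were above all G0 arrays, by a small amount (0.35, 95% interval −0.08 to 0.78, adjusted p = 0.770). Macroh2a2 (1426363_x_at) had a difference of 0.45 (95% interval −0.10 to 1.00) and the joint Macroh2a2 and Macroh2a3 probe set one of 0.43. Macroh2a3 alone gave −0.45 and 0.59 at its 2 probe sets. The 3 probe sets of H2aj, which encodes H2A.J, gave −0.06, −0.40 and 1.03, the first with a 95% interval of −0.47 to 0.35.

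H3.3, encoded by H3f3a and H3f3b, replaces canonical H3 at transcribed genes and regulatory elements outside S phase. Its 5 multi-name probe sets had small positive differences, from 0.06 to 0.35. The steadiest, 1434127_a_at, read 0.07, 0.00, −0.00 and −0.01 in G1 and −0.11, 0.05, 0.02 and −0.12 in G0, with a difference of 0.06 (95% interval −0.37 to 0.48). The values of the 2 groups were interleaved. At the single-gene probe sets the difference was 0.87 for H3f3b (95% interval −1.47 to 3.22) and −0.56 for H3f3a (−2.71 to 1.58), intervals too wide to place either.

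Variant H1 genes among the members gave no difference past an unadjusted p of 0.05. H1f0, a variant H1 gene that the rule also listed, was named by no member and was not read. The widely expressed H1f10 had −0.03 (95% interval −0.65 to 0.59). The oocyte gene H1f8 had −1.11 (adjusted p = 0.827), the testis gene H1f7 −0.09 and 0.21, and the testis H2A variant gene H2al2a −0.02.

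The class comparison was made array by array. The median over the 35 replication-dependent probe sets was −0.62, −0.42, −0.12 and 0.07 on the G1 arrays and 0.30, −0.04, 0.37 and 0.01 on the G0 arrays, so G1 replicate 4 lay within the G0 range. The mean of these medians was −0.27 ± 0.31 in G1 and 0.16 ± 0.20 in G0 (SD, n = 4 each). For the 27 variants the array medians were 0.17, 0.06, 0.02 and 0.27 in G1 and −0.17, −0.09, 0.14 and −0.18 in G0, with means of 0.13 ± 0.11 in G1 and −0.07 ± 0.15 in G0 (SD, n = 4 each). G0 replicate 3 lay within the G1 range.

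The gap between the classes, the replication-dependent minus the variant median of an array, was −0.78, −0.48, −0.14 and −0.20 in G1 and 0.47, 0.05, 0.24 and 0.19 in G0. It was negative on all 4 G1 arrays and positive on all 4 G0 arrays, with means of −0.40 ± 0.30 and 0.24 ± 0.18 (SD, n = 4 each). By labelled batch, the replication-dependent median difference was −0.67 in replicates 1 to 3 and 0.32 in replicate 4, so its sign turned, while that of the variants was 0.15 and 0.48. The median of all probe sets also differed between those batches, at −0.11 and 0.15. With batches as the spike-ins show them, the replication-dependent median was −0.37 in the 6 arrays that had them and −0.16 in the pair that did not. For the variants it was 0.35 and 0.24.

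The classes also differed in how much the replicates varied. The median within-group SD was 0.71 for replication-dependent and 0.38 for variant probe sets, against 0.70 for all probe sets, and was 0.23 for H2A.Z and 0.20 for H3.3. A log2 difference of the size seen for H2A.Z was therefore within the replicate spread of many replication-dependent probe sets. Differences of at least 2-fold were 13 lower and 4 higher among the replication-dependent probe sets and 1 lower and 2 higher among the variants, where 7.50% of all probe sets were lower and 7.47% higher by that much.

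**Figure D4:**
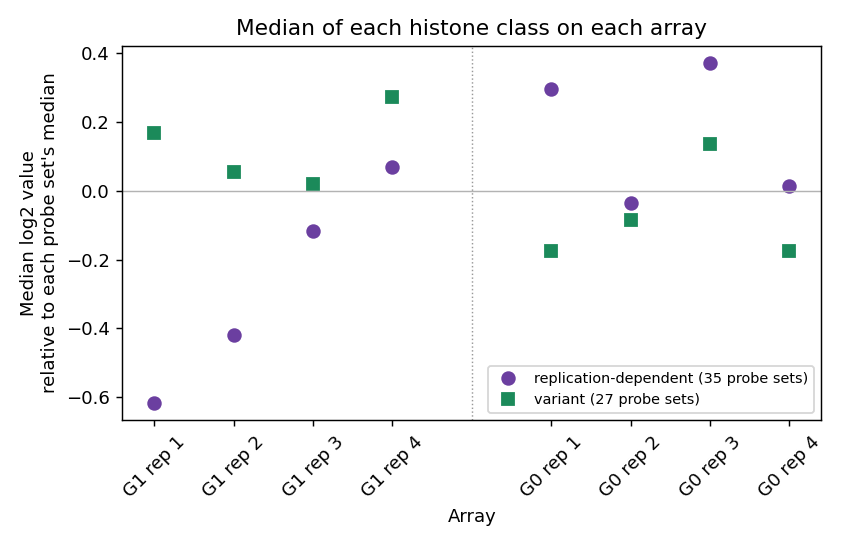
Median log2 value of the 35 replication-dependent (circles) and 27 variant probe sets (squares) on each array; 0 is a probe set's median over all arrays. Circles lie below squares on the 4 G1 arrays and above them on the 4 G0 arrays, with the narrowest distances at G0 replicate 2 and G1 replicate 3.

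Genes that transcribe, process or degrade replication-dependent histone mRNA were read as a separate list of 25, of which 24 were measured. None passed the adjusted threshold with the labelled batch, and 3 were higher and 0 lower in G1 at an unadjusted p under 0.05, against 3.71% higher and 3.59% lower over all probe sets. Their median difference was 0.07, against −0.06 for all probe sets. Slbp, which binds the stem-loop, had a difference of 0.53 (SE 0.42, adjusted p = 0.877), and its other probe sets ranged from −2.23 to 0.80. Npat, the coactivator of histone transcription, had 0.15 (adjusted p = 0.959), and Casp8ap2, a component of the histone locus body, had 0.36 (adjusted p = 0.856).

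The 3 at an unadjusted p under 0.05 were Nelfe, Zfp473 and Eri1. Nelfe, a subunit of the negative elongation factor, read 0.63, 0.33, 0.41 and 0.59 in G1 and −0.35, −0.37, −0.34 and −0.33 in G0. The G0 arrays lay very close together below the G1 arrays (0.84, SE 0.18), with an adjusted p of 0.202 in the labelled-batch limma fit and 0.0481 with the spike-in batch. Zfp473, a zinc finger protein of the U7 processing complex, read 0.51, 0.78, 0.07 and 0.73 in G1 and −0.07, −0.75, −0.56 and −0.66 in G0 (1.03, SE 0.27, adjusted p = 0.337). Eri1, an exonuclease that trims the histone stem-loop, read 0.27, 0.47, 0.19 and 0.38 in G1 and −0.19, −0.49, −0.32 and −0.90 in G0 (0.80, SE 0.23, adjusted p = 0.418). Its second probe set had a difference of 1.02. At the probe sets whose array values are given here, none of these 3 genes overlapped between the groups. Over all probe sets, 3.16% were separated with G1 higher.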

How the data were processed

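Total RNA of 8 sorted samples was measured on Affymetrix mouse arrays. The deposited log2 values were made by the authors with MAS5, per the submitters' processing notes, and they arrive centred at the median of every probe set (largest absolute median 5e-07). The base of the logarithm, not given in the sources used here, was taken as 2 from the range of −5.88 to 5.58 outside the controls. Centring removes levels, so no filter on dim probe sets was possible. The number of arrays limits the precision.

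Probe sets were named from the platform annotation, with older names from the RefSeq gene table (GRCm38.p6). Differences, G1 minus G0, were fitted with limma 3.58.1 in R 4.3.3 (lmFit, eBayes with trend, two-sided) over 45037 probe sets, after leaving out 64 controls. The labelled batch was a covariate, and p-values were Benjamini-Hochberg adjusted with a threshold of 0.05. The fit was tested on simulated data.

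Members and lists were chosen with earlier results of these data known. The rule named, in each family, the 2 most positive and the most negative difference. It also named every probe set of H2A.X, H2A.Z, macroH2A, H2A.J, H3.3, H1f10 and H1f0. No member named H1f0. For H4 and for the H3.3 probe sets with several names, some of these are given only within a range. Other probe sets with an unadjusted p under 0.05, or shown beside these, were chosen after their values were seen. Promoter sequences are RefSeq's. Alternatives changed the batch, arrays, scaling, moderation, probe set choice and members.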

Additional observations from a re-analysis of the deposited data

Results flagged for a closer look

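A single array stood far from the other 3 of its group in 4 of the 44 groups of 4 arrays examined. These are both groups of the 20 histone probe sets with an unadjusted p under 0.05 (limma, labelled batch), and the array medians of the classes. Chance marks about 1 in 20 such groups. At the probe set of H2bc8, H2bc6 and H2bc4 (1418072_at), G0 replicate 1 was highest at 2.08, and without it the log2 difference was −1.93 in place of −2.28. At the 8-gene H3 probe set (1422155_at), G0 replicate 1 was again highest at 1.64, and the difference without it was −2.65 in place of −2.91. At H2bc21 (1455095_at), G1 replicate 3 was lowest at −2.64, and the difference without it was −1.21 in place of −1.75. At H2az1 (1438092_x_at), G1 replicate 4 was lowest at −0.0977, and the difference without it was 0.83 in place of 0.59.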

How the results depend on the processing

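Of the same 20 probe sets, picked by their unadjusted p on these same arrays, none reversed direction in any of the 18 alternative fits. Several of these fits could not reverse a direction. Changing the batch covariate or the moderation, or leaving out tied probe sets, returned the same differences. Replicates 1 to 3 alone and each fit without a replicate 4 also shared their differences. The 10-gene H2A probe set (3.57) crossed the threshold only with the spike-in batch, which gave 1 call among replication-dependent probe sets, 1 among the mRNA processing genes and 355 over all probe sets, against 0, 0 and 180 with the labelled batch. On the 6 arrays with spike-ins, 44 of all probe sets passed, the variant median was 0.35 and the difference between the class medians, −0.46 on all arrays, was −0.72. On replicates 1 to 3 alone, 0 of all probe sets passed in limma (3575 at an unadjusted p under 0.05), the replication-dependent median was −0.67 and the class difference −0.82. With the replicate block, 0 passed (3219 unadjusted). Same-numbered arrays did not deviate together (correlations of 0.07, 0.11, −0.14 and −0.14), so the numbers were not taken as pairs. The highest correlation between a G1 and a G0 array was 0.31, for the arrays without spike-ins (G1 replicate 4 and G0 replicate 3), and G1 replicate 3 with G0 replicate 4 gave 0.10. No block in that order was run. Leaving out 1 array in turn gave 0 to 122 calls over all probe sets, with 46 without G0 replicate 1, 122 without G0 replicate 3 and 0 without any other. In those fits the replication-dependent median ran from −0.67 to −0.19 and the class difference from −0.82 to −0.33, the lowest of each without replicate 4 of either group, which leaves the comparison to replicates 1 to 3.

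Only probe sets naming 1 gene gave a replication-dependent median of −0.998 and a class difference of −1.21. Averaging the probe sets that carry the same symbol or the same list of symbols gave −0.09 and −0.26. That left 22 replication-dependent and 16 variant averages, which are not single genes throughout. The variant median, 0.21, was 0.35 without testis genes and the oocyte gene H1f8, 0.35 with only the testis genes left out, 0.10 without the s_at and x_at probe sets, 0.0665 for members matched by the platform symbol alone and 0.35 for probe sets of low within-group SD. The settings that kept H1f8, used platform symbols alone or took low SD were added after seeing the data. Where 1 setting moved a value, the cause was not tested beyond the change in probe sets or arrays that it names. Shared sequence between histone copies and centring before deposit limit every value to a difference at a probe set.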
